A study of Mus musculus with 7 samples.

Results

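The 8 genes described here encode synaptic and axonal adhesion proteins: the neurexins Nrxn2 and Nrxn3, the neuroligins Nlgn1, Nlgn2 and Nlgn3, and the contactin-associated proteins Cntnap1, Cntnap2 and Cntnap4. They were chosen by name and make up 8 of 21887 protein-coding genes in the RefSeq table of GRCm38.p6. Each locus was taken as the gene span with 50 kb on either side, and a peak belonged to a locus that it overlapped by at least 1 bp. Open chromatin was mapped by ATAC-seq, in which a transposase cuts accessible DNA, in neural progenitor cells of CD-1 embryos at E14.5, taken from the dorsal telencephalon and sorted as CD15+. The libraries came from L3mbtl3 -/- embryos (4 libraries) and wild-type embryos (3 libraries). All 7 share the strain, the stage and the sort. The labels' growth protocol also names L3mbtl3 het cells, though none of the 7 libraries is labelled so. How the allele was made, the sex of the embryos and whether a library held 1 embryo or a pool were not stated in the labels, so p-values measure the spread between these libraries, which may be partly technical.

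Neurexins are presynaptic membrane proteins with large extracellular domains that bind neuroligins and other ligands across the synaptic cleft. Neuroligins are their postsynaptic partners, with Nlgn1 best known from excitatory synapses, Nlgn2 from inhibitory synapses and Nlgn3 from both. Cntnap proteins are distant relatives of neurexins. Cntnap1 works at the paranodes of myelinated axons, Cntnap2 groups potassium channels beside the nodes, and Cntnap4 has been tied to interneuron synapses. Neurons use most of these proteins after they leave the cell cycle, and the cells profiled here were sorted as progenitors. An accessible region in or near a gene is not a measure of its expression, and in a sorted population a region open in fewer cells and a region less open in every cell cannot be told apart.

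The RefSeq promoter table gave 8 promoters for 4 of the 8 members (Nlgn1, Nlgn2, Nrxn3 and Cntnap2), each from 250 bases before to 50 bases after a listed start. Peaks overlapped 1 of these 8 promoters, in 1 library: the distal Nlgn1 promoter, in knockout library 4. For scale, 2.25% to 11.1% of 32851 promoters overlapped a peak per library in the knockout lists and 4.00% to 7.12% in the wild-type lists. A peak of at least 1 library overlapped 14.7% of all promoters. The promoters of Nlgn1, Nlgn2 and Cntnap2 are printed here because they differ in how near a peak came: a peak lay over that of Nlgn1 (chr3:26331860-26332159, minus strand, GRCm38.p6), 357 bp from that of Nlgn2 (chr11:69837735-69838034, minus strand) and no nearer than 33.3 kb from the one at the 5′ end of Cntnap2 (chr6:45059811-45060110, plus strand). Capitals mark the 208 bases under the peak of knockout library 4 in Nlgn1 and the E-box CAGCTG in Nlgn2.
Nlgn1 promoter: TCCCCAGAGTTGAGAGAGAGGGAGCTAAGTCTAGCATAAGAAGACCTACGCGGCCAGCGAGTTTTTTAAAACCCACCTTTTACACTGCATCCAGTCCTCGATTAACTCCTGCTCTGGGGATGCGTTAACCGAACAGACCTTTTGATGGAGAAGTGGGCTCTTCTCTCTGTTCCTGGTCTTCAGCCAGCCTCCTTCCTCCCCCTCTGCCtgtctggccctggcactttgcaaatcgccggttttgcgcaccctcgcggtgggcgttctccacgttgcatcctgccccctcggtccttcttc
Nlgn2 promoter: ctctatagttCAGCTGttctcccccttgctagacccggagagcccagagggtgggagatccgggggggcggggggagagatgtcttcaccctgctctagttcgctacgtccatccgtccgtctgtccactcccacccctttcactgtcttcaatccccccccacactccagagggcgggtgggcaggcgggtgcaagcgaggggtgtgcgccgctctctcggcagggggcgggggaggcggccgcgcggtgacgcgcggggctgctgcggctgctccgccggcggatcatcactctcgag
Cntnap2 promoter: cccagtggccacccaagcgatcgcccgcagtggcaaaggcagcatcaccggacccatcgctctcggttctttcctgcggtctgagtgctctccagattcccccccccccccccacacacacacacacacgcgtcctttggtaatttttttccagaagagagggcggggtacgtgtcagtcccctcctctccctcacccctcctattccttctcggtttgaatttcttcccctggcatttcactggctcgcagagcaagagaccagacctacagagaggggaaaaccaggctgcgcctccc

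All 3 printed promoters were richer in G and C than the median promoter at 52.7%, with 55.7% in Nlgn1, 68.7% in Nlgn2 and 59.7% in Cntnap2. The other listed promoters of Nlgn1 (44.7%) and Cntnap2 (46.3%) and those of Nrxn3 at 88794254 (47.3%) and 88953140 (47.7%) were below that median. The Nrxn3 promoter at 89812233 was above it, at 60.7%. Proneural factors bind E-boxes of the form CANNTG, and 2 of these were searched on both strands. CAGCTG, which is its own reverse complement, stood in 1 of the 8 member promoters, that of Nlgn2, 234 bp before the start, and in 16.3% of all promoters. CAGATG, or CATCTG on the other strand, stood in 0 of the 8 and in 17.2% of all promoters. These are matches of letters and do not show binding.

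The lists held 9827, 7111, 3366 and 17362 peaks in knockout libraries 1 to 4 and 7448, 11394 and 6458 in wild-type libraries 1 to 3. Knockout library 3 was the shortest and knockout library 4 the longest list, and the read depth behind them is unknown. At L3mbtl3, the targeted gene (chromosome 10, 26274461 to 26376036), the span held 0, 0, 0 and 1 peaks in the knockout and 1, 0 and 0 in the wild-type libraries, which does not test the deletion. Of all 21887 protein-coding genes, 15153 had a peak in their locus, which is the share to set beside the marker counts. Of 14 marker genes of dorsal progenitors, 13 had a peak in their locus, and Hes1 was at 0. The summed counts were 12 to 43 in knockout and 12 to 21 in wild-type libraries. The locus of Fut9, which encodes an enzyme that makes the CD15 epitope, held 16 peaks over the libraries. Neuronal marker loci summed to 6 to 17 peaks in knockout and 2 to 11 in wild-type libraries, and all 9 had a peak. Endothelial loci, 5 of 5 with a peak, summed to 0, 0, 0 and 7 in knockout libraries 1 to 4 and 0, 1 and 0 in wild-type libraries 1 to 3. Pecam1, Cldn5, Tek and Kdr had peaks in knockout library 4 alone, the longest list. Microglial and blood loci, 5 of 6 with a peak, summed to 0 to 6 in knockout and 2 to 3 in wild-type libraries, with Csf1r at 0. Of 4 meningeal loci only Dcn had peaks, 1 to 2 in knockout libraries and 1 in each wild-type library. Ventral telencephalon loci, 4 of 8 with a peak, summed to 3 to 6 in knockout and 2 to 4 in wild-type libraries. Most of these peaks were at Gad2, none of them inside its span, and Dlx5, Gsx2, Nkx2-1 and Gad1 were at 0. Oligodendrocyte loci, 1 of 5 with a peak, summed to 0 to 1 in either genotype, with Olig1, Sox10, Pdgfra and Mbp at 0. Their part in the results below was not tested.

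The 8 loci together held 44, 29, 14 and 61 peaks in knockout libraries 1 to 4 and 32, 45 and 26 peaks in wild-type libraries 1 to 3. The counts of the genotypes overlapped, and their order was that of list length. Knockout libraries averaged 37 ± 20.1 peaks (SD, n = 4) and wild-type libraries 34.3 ± 9.71 (SD, n = 3), a difference of 2.67, less than the SD of either genotype. With every list limited to its 3366 strongest peaks it was 3.17, above the knockout SD of 2.65. Per 10000 peaks of a library's own list, the 8 loci held 44.8, 40.8, 41.6 and 35.1 in knockout libraries 1 to 4 and 42.96, 39.5 and 40.3 in wild-type libraries. On that scale the lowest value belonged to the longest list, knockout library 4, and the means were 40.6 ± 4.01 and 40.9 ± 1.82 (SD, n = 4 and 3). The direction of the raw difference rested on knockout library 4, without which it was -5.33 peaks, and it was -1.5 without wild-type library 3.

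**Figure D1:**
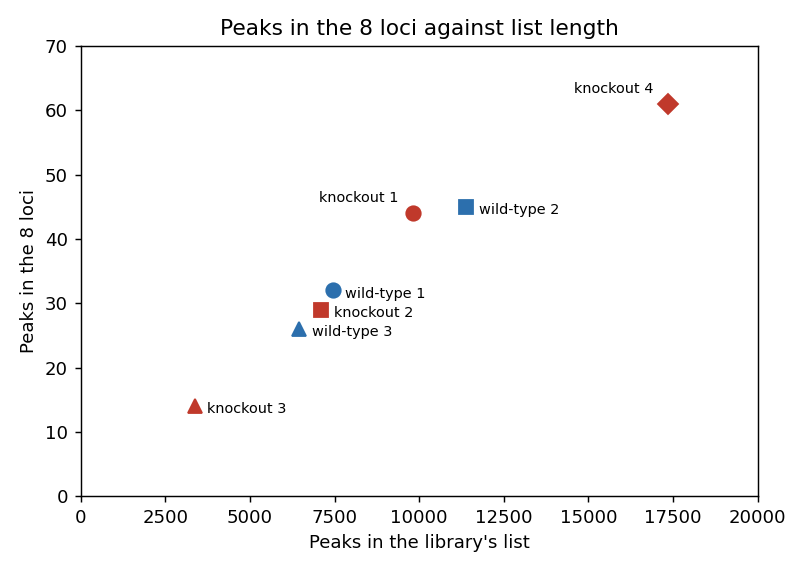
Peaks in the 8 loci (vertical axis) against the number of peaks in the library's list (horizontal axis), 1 point per library, with L3mbtl3 knockout in red and wild-type in blue. The points run from knockout library 3, with 14 of 3366 peaks, to knockout library 4, with 61 of 17362.

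Most of these peaks lay in 3 long genes. Nrxn3, Nlgn1 and Cntnap2, with spans of 1612 kb, 911 kb and 2241 kb, held 42, 28, 12 and 53 of the peaks in knockout and 30, 43 and 22 in wild-type libraries. The other 5 loci held 2, 1, 2 and 8 in knockout and 2, 2 and 4 in wild-type libraries. Over all libraries, Nrxn3 had 90 peaks, Cntnap2 84, Nlgn1 56, Cntnap4 9, Nlgn2 6, Nlgn3 5, Cntnap1 1 and Nrxn2 0. The totals of Nrxn3 and Cntnap2 are close beside the spread between libraries. Windows differ in length, so the density per Mb of gene span is given with each gene.

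**Figure D2:**
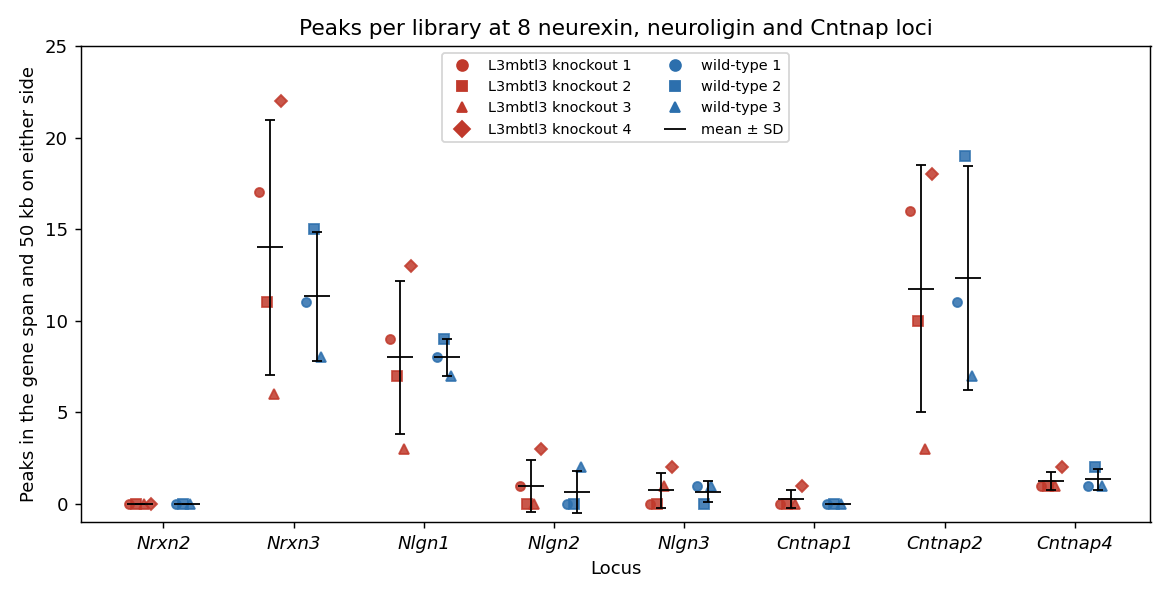
Peaks in each locus (gene span and 50 kb on either side) per library, with L3mbtl3 knockout libraries in red to the left of wild-type libraries in blue, and bars for mean ± SD (n = 4 and 3). Nrxn3, Nlgn1 and Cntnap2 carry most peaks, Nrxn2 none, and the genotypes overlap at every locus.

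Of the neurexins, Nrxn3 (chromosome 12, 88722701 to 90334935, plus strand) had 17, 11, 6 and 22 peaks in its locus in knockout libraries 1 to 4 and 11, 15 and 8 in wild-type libraries 1 to 3. Knockout libraries 1 and 4 were highest, knockout library 3 was lowest, and the genotypes overlapped. The means were 14 ± 6.98 and 11.3 ± 3.51 (SD, n = 4 and 3), a difference of 2.67 within the spread between libraries (two-sided exact permutation p = 0.6, adjusted p = 1 over 15153 genes with a peak). It was 0 without knockout library 4 and 5.33 without knockout library 3. With equal lists the Nrxn3 difference was 2.08 (unadjusted permutation p = 0.0857). Per 10000 peaks it was 2.38 (unadjusted permutation p = 0.143). Inside the span Nrxn3 held 8.22 ± 3.77 peaks per Mb in knockout and 6.82 ± 1.86 in wild-type libraries (SD). Nrxn2 (chromosome 19, 6418756 to 6533217), with a span of 114 kb, had no peak in its locus in any library. Its window also takes in 4 other protein-coding genes, in whole or in part.

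Nrxn3 held 31 merged regions, of which 18 were recurrent, meaning that at least 2 libraries had a peak in them, and 3 were called in all 7. The first of these 3, at 89764852 to 89765225, lay 64.7% along the span. Its fold enrichment, the authors' ratio over the peak caller's background, was 7.17, 7.37, 5.19 and 9.59 in knockout libraries 1 to 4 and 4.89, 5.87 and 4.34 in wild-type libraries 1 to 3. Ranked by −log10 q within its own list, the peak stood at percentile 96.1, 96.7, 85.1 and 99.6 in the knockout and 57.8, 84.6 and 53.6 in the wild-type lists. The knockout percentiles were all above the wild-type ones, though ranks from lists of different lengths do not show a change, and among the 1296 regions called in all libraries 2.47% had this pattern and 1.93% the opposite one. It was the only 1 of the 9 such regions in the 8 loci whose percentiles did not overlap.

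The second, at 90132318 to 90132933, ranked at percentile 94.6, 97.2, 81.6 and 94.6 in knockout and 93.7, 98.3 and 70.5 in wild-type lists, with fold values of 4.99 to 7.29. The third, at 90274706 to 90275023, lay 59.9 kb from the 3′ end of the span and had fold values of 4.33 to 7.55. Its neighbour at 90283051 to 90283340 was called in 4 of 4 knockout and 2 of 3 wild-type libraries, as was the region at 89442335 to 89442823 near the middle of the span. A region at 88859587 to 88860087 was called in 3 of 4 and 3 of 3.

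At the 5′ end of Nrxn3, the region at 88722745 to 88722954 began 44 bp inside the span and was called in 3 of 4 knockout and 1 of 3 wild-type libraries (Fisher's exact p = 0.486). It was the only recurrent region within 1 kb of an end of any of the 3 long genes. None of the 3 listed promoters of Nrxn3 overlapped a peak. The regions at 88784238 to 88784679 and 88801165 to 88801595, on either side of the start listed at 88794504 and the second of them 6.88 kb after it, were each called in 3 of 4 knockout and 2 of 3 wild-type libraries. After the region at 88859587, no recurrent region followed for 486 kb, up to 89346072.

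The other Nrxn3 regions with at least 3 callers were those at 89505270 to 89505418 (3 of 4 knockout and 1 of 3 wild-type), 89699293 to 89699741 (2 of 4 and 2 of 3), 89731225 to 89731584 (2 of 4 and 1 of 3) and 89450864 to 89451227 (1 of 4 and 2 of 3). In the region at 89699293 the peaks of the 4 callers shared no base. In the other 17 recurrent Nrxn3 regions all callers shared at least 32 bp.

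**Figure D3:**
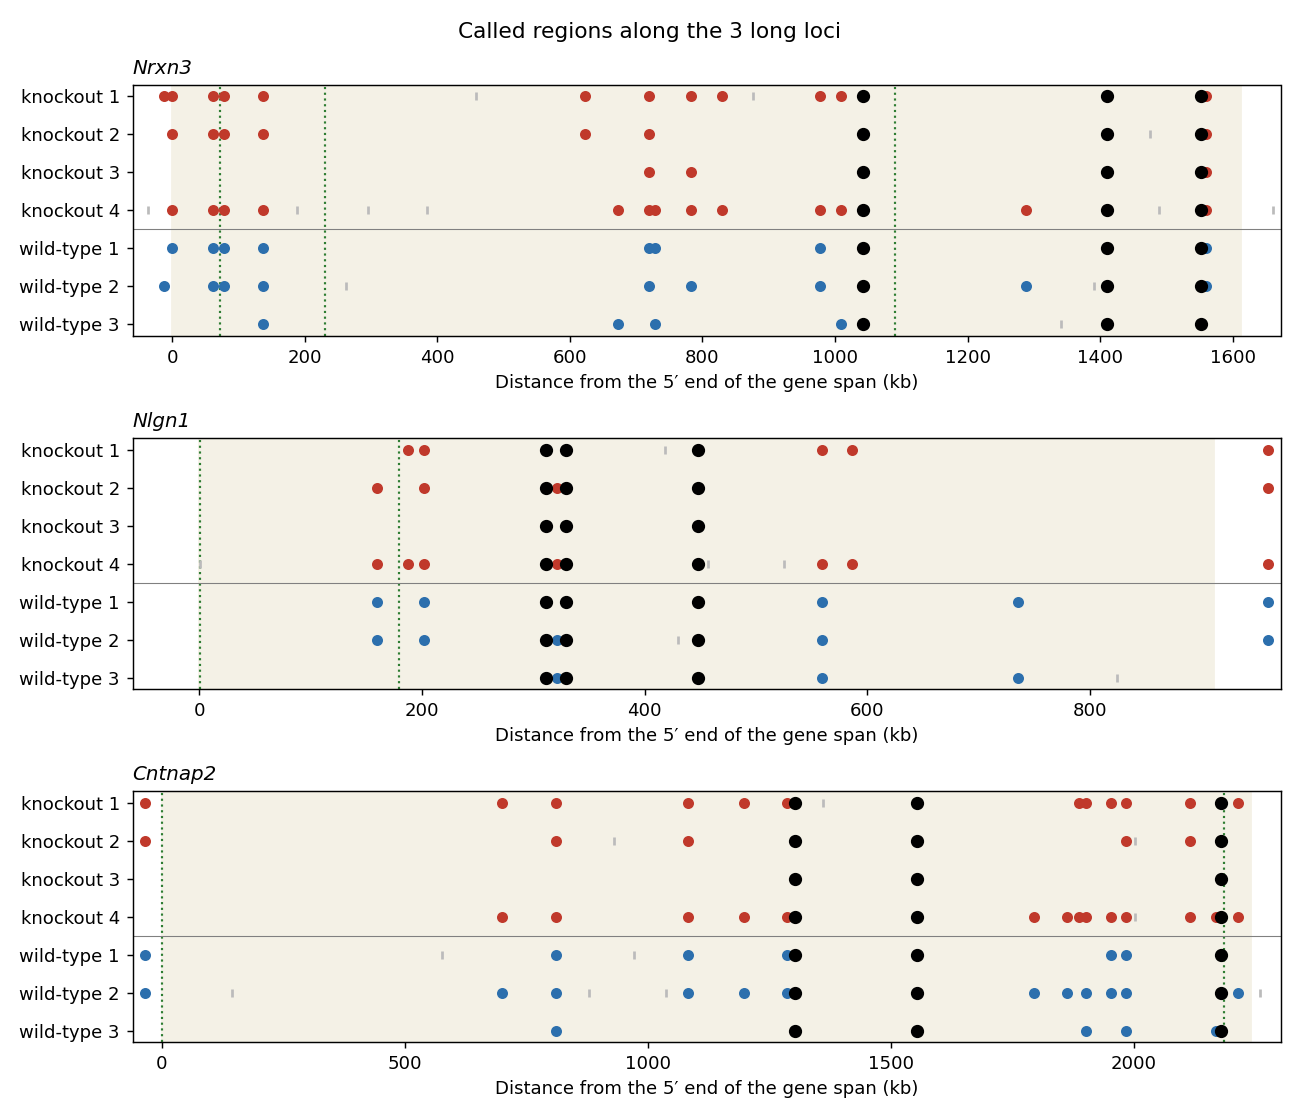
Called regions along Nrxn3, Nlgn1 and Cntnap2 by distance from the 5′ end of the gene span in kb, 1 row per library, with the span shaded and listed starts as dotted lines. Black points are regions called in all 7 libraries, red (L3mbtl3 knockout) and blue (wild-type) points those called in 2 to 6, and grey ticks those called in 1. Each gene has 3 columns of black points, and recurrent regions are absent from the first 699 kb of the Cntnap2 span.

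Of the neuroligins, Nlgn1 (chromosome 3, 25421808 to 26332866, minus strand) had 9, 7, 3 and 13 peaks in knockout libraries 1 to 4 and 8, 9 and 7 in wild-type libraries 1 to 3. Both means were 8 peaks, with an SD of 4.16 in knockout (n = 4) and 1 in wild-type libraries (n = 3), so that the genotypes did not differ in mean (two-sided exact permutation p = 1, adjusted p = 1). Knockout libraries 3 and 4 lay below and above every wild-type library. Without knockout library 4 the difference was -1.67 and without knockout library 3 it was 1.67. The span held 7.96 ± 4.14 peaks per Mb in knockout and 8.05 ± 0.634 in wild-type libraries (SD). In knockout libraries 1 to 3 the density was lower than in Nrxn3, and in knockout library 4 and the 3 wild-type libraries it was higher.

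Nlgn1 held 17 regions, 11 of them recurrent and 3 called in all 7 libraries. These 3 lay in the middle of the span, at 25884910 to 25885288, 26003287 to 26003624 and 26021758 to 26022114. The region at 26003287 had the highest fold value of any peak in the 8 loci, 10.3 in knockout library 1. In the other libraries its fold was 4.70, 6.30 and 6.65 in knockout libraries 2 to 4 and 5.52, 5.09 and 4.43 in wild-type libraries. The region at 26021758 ranked at percentile 85.8, 83.5, 80.6 and 98.5 in knockout and 64.9, 78.9 and 86.6 in wild-type lists. Between these 2, a region at 26011493 to 26011909 was called in 2 of 4 knockout and 2 of 3 wild-type libraries.

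Further Nlgn1 regions were called in 5 libraries, each in 3 of 4 knockout and 2 of 3 wild-type ones: 26131014 to 26131211, and 25372572 to 25372804, which lay 49.0 kb beyond the 3′ end. The region at 25773567 to 25774192 was called in 2 of 4 and 3 of 3, and that at 26173648 to 26173885 in 2 of 4 and 2 of 3. The region at 25597595 to 25597816 was the only recurrent region of the 8 loci called in wild-type libraries alone, in 0 of 4 knockout and 2 of 3 wild-type libraries (Fisher's exact p = 0.143, adjusted p = 1 over 25623 regions). Over all regions, 1.51% had at least 2 wild-type callers and no knockout caller. The promoter peak of knockout library 4 printed above was a weak one, at percentile 9.56 of its list.

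Nlgn2 (chromosome 11, 69823123 to 69837784, minus strand) and Nlgn3 (chromosome X, 101299179 to 101321350) are short genes of 14.7 kb and 22.2 kb, and neither span held a peak in any library. The Nlgn2 locus had 1, 0, 0 and 3 peaks in knockout libraries 1 to 4 and 0, 0 and 2 in wild-type libraries 1 to 3, a difference of means of 0.333 (two-sided exact permutation p = 0.714, adjusted p = 1). Reaching into its window are 13 other protein-coding genes. The region nearest to Nlgn2, at 69838391 to 69838542, was called in knockout library 4 and wild-type library 3, 607 bp beyond the upper end of the span, and it touched an end of Tmem256. Another, at 69795365 to 69795542, was called in 2 of 4 knockout and 1 of 3 wild-type libraries and lay 424 bp from an end of Chrnb1, a subunit gene of the muscle acetylcholine receptor.

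The Nlgn3 locus had 0, 0, 1 and 2 peaks in knockout and 1, 0 and 1 in wild-type libraries, a difference of means of 0.0833 (two-sided exact permutation p = 1, adjusted p = 1). Its 1 recurrent region, at 101332432 to 101332708, lay 11.1 kb beyond the upper end of Nlgn3 and was called in 2 of 4 knockout and 2 of 3 wild-type libraries. Nlgn3 was the end nearest to it. The Nlgn3 window takes in 4 other protein-coding genes, and a peak of knockout library 4 alone lay 47 bp from an end of Med12. Without knockout library 4 the differences were -0.333 at both Nlgn2 and Nlgn3, so their direction rested on that library.

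Of the contactin-associated genes, Cntnap2 (chromosome 6, 45060061 to 47301393, plus strand) had 16, 10, 3 and 18 peaks in knockout libraries 1 to 4 and 11, 19 and 7 in wild-type libraries 1 to 3. Wild-type library 2 was highest and knockout library 3 lowest. The means were 11.8 ± 6.75 and 12.3 ± 6.11 (SD, n = 4 and 3), a difference of -0.583 (two-sided exact permutation p = 0.943, adjusted p = 1). It was 2.33 without knockout library 3 and 2.75 without wild-type library 2. The span held 5.02 ± 2.97 peaks per Mb in knockout and 5.06 ± 2.29 in wild-type libraries (SD), below the densities of Nrxn3 and of Nlgn1 in each of the 7 libraries.

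Cntnap2 held 28 regions, 18 of them recurrent, and 3 called in all 7 libraries. Recurrent regions were spread unevenly along the gene. None of the 17 inside the span lay in its first 25%, 3 lay in the second, 4 in the third and 10 in the last 25%. The longest stretch without a recurrent region ran for 733 kb from 45026546 to 45759415 and took in the 5′ end and the first listed promoter. In Nrxn3 the same 4 parts held 4, 5, 4 and 4 recurrent regions in order of position, and in Nlgn1, counted from the lower end, which is the 3′ end, 1, 2, 4 and 3.

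The strongest Cntnap2 region was at 46612844 to 46613207, called in all 7 libraries at percentile 99.0, 97.3, 85.8 and 97.3 in knockout and 67.5, 95.9 and 93.5 in wild-type lists. Its fold values were 8.19, 7.26, 5.59 and 7.18 in knockout and 5.14, 6.73 and 6.03 in wild-type libraries. A region at 46362116 to 46362523 was also called in all 7, with fold values of 4.46 to 6.60. The third, at 47239621 to 47240116, lay with its nearest peak 4.03 kb before the promoter of the second listed start, at 47244396, and ranked lower, at percentiles from 26.2 to 83.4.

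Regions called in 3 of 4 knockout and 3 of 3 wild-type libraries lay at 45871451 to 45871879, where the callers shared no base, and at 47042666 to 47043013. The region at 46143313 to 46143767 was called in 3 of 4 and 2 of 3. Called in 2 of 4 and 2 of 3 were 46346787 to 46347296, 46961382 to 46961526, 47013670 to 47013840 and 45026417 to 45026545, which lay 33.5 kb before the 5′ end. Called in 2 of 4 and 1 of 3 were 45759416 to 45759595, 46257145 to 46257365 and 47273042 to 47273613. The region at 47175736 to 47176205 was called in 3 of 4 knockout and 0 of 3 wild-type libraries (Fisher's exact p = 0.143, adjusted p = 1), and knockout library 3, the shortest list, was the one without it. Over all regions, 1.13% had at least 3 knockout callers and no wild-type caller.

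Cntnap4 (chromosome 8, 112569798 to 112882707), with a span of 313 kb, had 1, 1, 1 and 2 peaks in knockout and 1, 2 and 1 in wild-type libraries, a difference of means of -0.0833 (two-sided exact permutation p = 1, adjusted p = 1). It was 0.25 without wild-type library 2. The region behind most of these peaks lay inside the gene at 112755210 to 112755485 and was called in 3 of 4 knockout and 2 of 3 wild-type libraries. Knockout library 3 had no peak inside the span. A region 24.1 kb beyond the upper end, at 112906845 to 112907058, was called in knockout library 3 and wild-type library 2. Cntnap1 (chromosome 11, 101174617 to 101190724) had a single peak in its window, in knockout library 4, 33.9 kb from its lower end, and none in wild-type libraries (difference of means 0.25, two-sided exact permutation p = 1, adjusted p = 1).

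Across the 8 loci, 86 regions were merged from 251 peaks, 52 of them recurrent and 9 called in all 7 libraries, 3 in each long gene. Regions called in all 7 made up 10.5% of those in the 8 loci and 5.06% of the 25623 regions of the whole series, and regions called in 1 library 39.5% and 48.4%. Of the 34 regions called in 1 library, 14 came from knockout library 4, 4, 3 and 0 from knockout libraries 1 to 3, and 2, 8 and 3 from wild-type libraries. Over the whole series, 12396 regions were called in 1 library. Of these, 1291, 586, 288 and 6474 came from knockout libraries 1 to 4. Wild-type libraries 1 to 3 gave 759, 1987 and 1011. These shares are descriptions of a chosen set of genes and were not tested.

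Strength followed recurrence. In the 8 loci the median percentile of a peak within its list was 24.97 in regions called in 1 library, 49.1 in those called in 2 to 6 and 83.5 in those called in all 7. Over all regions the medians were 25.3, 51.0 and 81.0. Median fold values in the 8 loci were 4.10, 4.62 and 5.59. Knockout library 3 had 14 regions in the 8 loci. None of them was called in it alone, and over all regions 288 of the 12396 called in 1 library came from it.

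**Figure D4:**
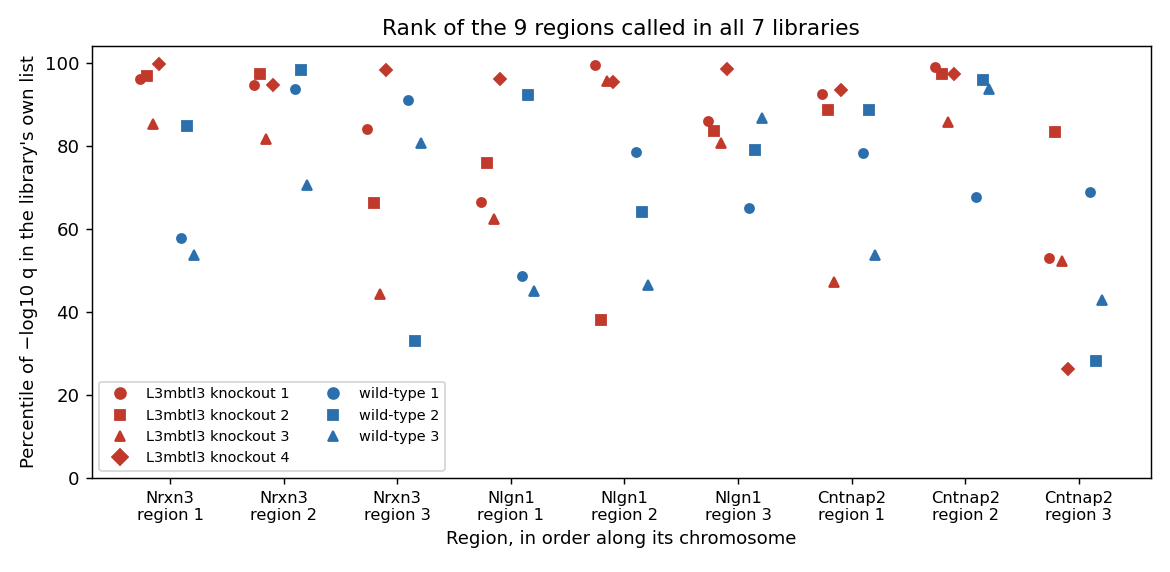
Percentile of −log10 q within the library's own list for the 9 regions called in all 7 libraries, in order along each chromosome, with L3mbtl3 knockout libraries in red to the left of wild-type libraries in blue. At the first Nrxn3 region the knockout points, at 85.1 to 99.6, lie above the wild-type points, at 53.6 to 84.6, and at the other 8 the genotypes overlap.

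Of the 52 recurrent regions, 45 (86.5%) touched a member's span and 7 lay in a flank. Gene span made up 86.8% of the 8 windows, so this share is close to that of evenly placed regions. Within 1 kb of a member's end lay 2 of the 52, at Nrxn3 and Nlgn2, and within 1 kb of any protein-coding gene's end 3 (5.77%). Windows made mostly of 3 long genes hold few gene ends, so this share was not compared with the rest of the series.

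The density of peaks in the 3 long genes was set beside the 227 protein-coding genes with a span of at least 500 kb. Averaged over the 7 libraries, Nlgn1 had 7.997 peaks per Mb of span, Nrxn3 7.62 and Cntnap2 5.04, and the median of the 227 genes was 4.13. A higher density was found in 28 of these genes for Nlgn1, 35 for Nrxn3 and 89 for Cntnap2. By the number of peaks in the span, 4 long genes exceeded Nrxn3, 6 exceeded Cntnap2 and 26 exceeded Nlgn1. Among all protein-coding genes, 68.9% had no peak in their span in any library, as had 4 of the 8 members.

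**Figure D5:**
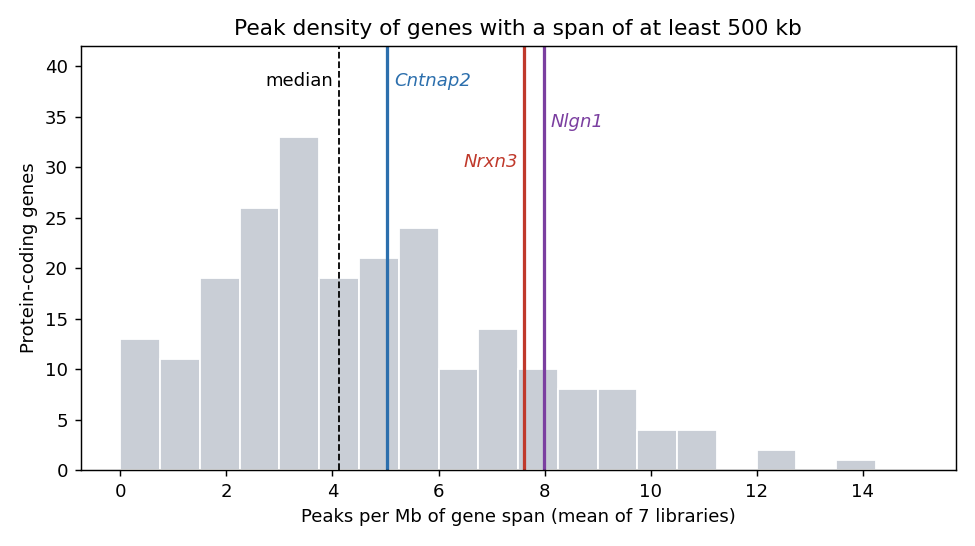
Number of protein-coding genes with a span of at least 500 kb (vertical axis) by peaks per Mb of gene span, averaged over the 7 libraries (horizontal axis). The 3 long members, at 5.04 (Cntnap2), 7.62 (Nrxn3) and 7.997 (Nlgn1), all lie above the median of 4.13 (dashed).

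Long genes with the most similar densities over the 7 libraries were ranked by the summed absolute difference in peaks per Mb of locus. Nearest to Nrxn3 were Robo2, an axon guidance receptor gene, at 4.47, the kinase gene Prkg1 at 5.63 and Nlgn1 at 5.95. Nearest to Nlgn1 were Cdkal1 at 4.65, Nrxn3 at 5.95 and Immp2l at 6.56. Nearest to Cntnap2 were Spag16 at 4.42, the latrophilin gene Adgrl3 at 5.02 and Nkain2 at 5.26. The 7 points of each gene share their list lengths, so that any 2 genes with like mean densities come out close.

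No difference between the genotypes passed at any member. Of the 7 loci with a peak, 4 had a higher mean in knockout libraries, 2 a lower one and 1 equal means, with a median difference of 0.0833 peaks. Over all 15153 genes with a peak in their locus, 8875 were higher and 5724 lower in knockout libraries, with a median of 0.167. At an adjusted p under 0.05, 0% of all genes passed, and at an unadjusted p under 0.05, 0.33% of genes and 0 of the 7 loci. Counts that did not overlap between the genotypes were found in 0 of the 7 loci and in 0.343% of all genes, 0.132% with knockout libraries higher and 0.211% with them lower. The smallest p of the 35 splits is 0.0286. A gene could therefore pass the adjustment only if a large share of all genes reached that p, and 0.33% did.

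At the level of regions, 0 of the 86 separated the genotypes fully. The smallest Fisher's exact p of 4 against 3 libraries is 0.0286. A region could therefore pass the adjustment only if a large share of all regions reached that p. Over the whole series 0.109% of regions had a peak in each of the 4 knockout lists and none elsewhere, and 0.133% in each of the 3 wild-type lists and none elsewhere. Among the 52 recurrent regions, 45 were called in both genotypes, 6 (11.5%) in knockout libraries alone and 1 (1.92%) in wild-type libraries alone. The shares over all recurrent regions were 11.4% and 2.93%. There are more knockout than wild-type libraries, and the longest list is a knockout one. The part of either in these shares was not tested.

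Partners of these proteins at synapses and axons were taken from 3 lists. Beside the shares given below, 15153 of all 21887 protein-coding genes had a peak in their locus. Among the 227 genes with a span of at least 500 kb, 226 had one. The median span in the 3 lists, in the order below, was 63.8 kb, 200 kb and 276 kb. The part of gene length in these shares was not tested. Of 19 genes for neurexin ligands and other extracellular partners, 15 had a peak in their locus, 6 with a higher and 8 with a lower mean in knockout libraries, and 0 passed at an adjusted or unadjusted p under 0.05. Mdga2, which encodes a membrane protein that binds neuroligins, had 4, 6, 4 and 7 peaks in knockout and 6, 9 and 5 in wild-type libraries. Adgrl3 had 6, 5, 3 and 7 in knockout and 5, 7 and 3 in wild-type libraries. The difference with the largest size was at Nxph1, which encodes neurexophilin, a secreted neurexin ligand, with 2, 2, 0 and 3 peaks in knockout and 3, 5 and 3 in wild-type libraries. The means were 1.75 ± 1.26 and 3.67 ± 1.15 (SD, n = 4 and 3, two-sided exact permutation p = 0.114, adjusted p = 1).

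All 18 genes for intracellular scaffolds had a peak in their locus, 11 with a higher and 7 with a lower mean in knockout libraries, and 0 passed at an adjusted or unadjusted p under 0.05. Dlg2, the postsynaptic scaffold PSD-93, had 18, 14, 5 and 19 peaks in knockout and 10, 14 and 9 in wild-type libraries, and Magi2, another scaffold of neuroligins, had 10, 9, 4 and 12 in knockout and 7, 11 and 8 in wild-type libraries. The difference of 3 peaks at Dlg2 was within the spread between libraries (two-sided exact permutation p = 0.486, adjusted p = 1). Apba2, a presynaptic adaptor of the Mint family, had 2, 2, 3 and 7 in knockout and 2, 1 and 1 in wild-type libraries (two-sided exact permutation p = 0.171, adjusted p = 1). Lin7c, a small PDZ-domain scaffold, had 4, 3, 1 and 5 in knockout and 3, 4 and 3 in wild-type libraries.

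Of 15 genes for partners of contactin-associated proteins, 14 had a peak in their locus, 8 with a higher and 6 with a lower mean in knockout libraries, and 0 passed at an adjusted or unadjusted p under 0.05. Cntn5, a contactin gene, had 16, 12, 7 and 19 peaks in knockout and 12, 20 and 12 in wild-type libraries. Cntn4, another contactin gene, had 13, 9, 4 and 9 in knockout and 5, 8 and 4 in wild-type libraries, a difference of 3.08 (two-sided exact permutation p = 0.257, adjusted p = 1). Ank2, an ankyrin of the axonal membrane skeleton, had 6, 4, 1 and 10 in knockout and 4, 10 and 4 in wild-type libraries. Nrcam, an adhesion molecule of the node of Ranvier, had 5, 5, 3 and 12 in knockout and 2, 6 and 5 in wild-type libraries (two-sided exact permutation p = 0.686, adjusted p = 1). In each of the 3 lists the genotypes overlapped at every gene with a peak.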

How the data were processed

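For each library the authors deposited a broad peak list. Tools named in the submitters' processing notes are MACS2, deepTools 3.3.0, SAMtools 1.9, Bowtie2 2.3.5.1, FastQC 0.11.8 and CASAVA 1.9, with the build GRCm38. Their settings, the MACS2 version and whether reads were shifted for Tn5 are not given in sources used here. Each deposited peak carries a fold enrichment (a ratio over background), a −log10 p and a −log10 q, which here served for ranks and filters inside 1 list, and a deposited score, not used. The lists hold no read counts, so depth is unknown and no counting interval was set.

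Peaks were counted per gene window and joined into regions on sharing 1 bp or more (Python 3.11.15, pandas 2.3.3, SciPy 1.17.1). Window counts were compared for 15153 genes by the difference of means, with an exact two-sided permutation p over 35 splits, and regions with Fisher's exact test, with Benjamini-Hochberg adjustment over all genes or regions. The permutation and merging code was tested on simulated data. Gene spans and promoters are RefSeq's (GRCm38.p6), without exons. Members, partner and marker lists were chosen with earlier results of these data known. All members were named, as were, per partner list, the 3 genes with most peaks and the 2 with the largest difference of means, the 3 long genes nearest to each long member, and regions called in at least 3 libraries. A gene that this rule names is not reported here.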

Additional observations from a re-analysis of the deposited data

Results flagged for a closer look

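In the 4 knockout libraries, 3 of 13 sets of counts held a value that stood apart from the others by more than Dixon's 95% critical value. The Cntnap1 locus had 1 peak in knockout library 4 and 0 in the other 3. The Cntnap4 locus had 2 peaks in knockout library 4 and 1 in each of the others, and inside the Cntnap4 span knockout library 3 had 0 and the others 1 each. Such counts differ by a single peak, in the longest or the shortest list. Dixon's critical value is meant for continuous values. In counts this small, any set with 3 equal values and 1 different one is flagged, so no chance rate is given. Groups of 3, such as the wild-type libraries, were not tested.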

How the results depend on the processing

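With all 7 libraries, 0 of the 7 loci with a peak had an unadjusted permutation p under 0.05 under any alternative run. With a library left out the smallest possible p is 0.1 (3 against 3) or 0.0667 (4 against 2), so those fits could not pass. Under every alternative run, 0 loci had counts that did not overlap between genotypes. The difference in peaks summed over the 8 loci, 2.67 knockout minus wild-type, ranged from -5.33 to 10.3 with single libraries left out. With gene spans only it was 1.83, with peaks at −log10 q of 5 or more 4.17, with equal lists 3.17 and, on another scale, -0.336 per 10000 peaks.

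Differences changed direction at 4 loci. Cntnap2 went to 1.08 at −log10 q of at least 5, and to 2.33 and 2.75 without knockout library 3 and wild-type library 2. Nlgn2 went to -0.346 per 10000 peaks, and to -0.333 without knockout library 4. Nlgn3 went to -0.333 without knockout library 4 and to -0.25 without wild-type library 2. Cntnap4 went to 0.0879 per 10000 peaks and to 0.25 without wild-type library 2. With single libraries left out the ranges were 0 to 5.33 at Nrxn3, -1.67 to 1.67 at Nlgn1, 0 to 0.333 at Cntnap1, -3.25 to 2.75 at Cntnap2, -0.333 to 1 at Nlgn2, -0.333 to 0.333 at Nlgn3 and -0.333 to 0.25 at Cntnap4. The cause was not tested.

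Recurrent regions numbered 52, and 24 with equal lists and 8 at −log10 q of at least 5, settings that leave fewer peaks. With single libraries left out they numbered 42 to 51. Regions that separated the genotypes fully numbered 0, and 0 to 1 with single libraries left out. The 1 was at Cntnap2 without knockout library 3 and at Nlgn1 without wild-type library 2. Fewer libraries have to agree in such runs, and the share over all regions was not counted there.

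The labels give both genotypes replicate numbers 1 to 3. Counts per 10000 peaks of same-numbered libraries had deviations from their group means that correlated over genes at -0.0258, 0.0614 and 0.0604, so the numbers were not taken as pairs. With the replicate block, which leaves out knockout library 4, the summed difference was -5.33 and those of Nlgn2 and Nlgn3 were each -0.333, and that of Nrxn3 was 0. The smallest p of that fit is 0.25, so it could not pass either. The lists limit the findings to called peaks: an uncalled region may be open below the caller's threshold.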
